A study of Mus musculus with 6 samples.

Results

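The C/EBP family (CCAAT/enhancer-binding proteins) was followed here through its 5 genes Cebpa, Cebpb, Cebpd, Cebpg and Ddit3, which were taken by gene symbol from a table of 15469 genes. All 5 passed the filter on low counts, as did 11424 genes of the table. RNA was measured in 6 libraries of peritoneal macrophages of mice, the phagocytes lavaged from the abdominal cavity, which had been sorted for surface RELM-α and plated in culture medium. The 3 libraries labelled KO held cells in which PU.1 had been deleted, per the labels; PU.1 is the myeloid ETS transcription factor encoded by Spi1. The 3 labelled WT held control cells. The mice of both groups were of the CAIA model, a name given only as an abbreviation, and the labels give neither the way PU.1 was deleted, nor strain, sex, age, time in culture or the number of animals. No label ties a library to its own animal or culture, so the p-values speak only of how these libraries varied, which may be technical variation.

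C/EBP proteins bind DNA as dimers through a basic region and a leucine zipper. C/EBPα, encoded by Cebpa, is needed for granulocyte and monocyte progenitors and for fat cells, and C/EBPβ and C/EBPδ, encoded by Cebpb and Cebpd, are induced in macrophages by cytokines and bacterial products. C/EBPβ is also needed for the large macrophages of the peritoneum. C/EBPγ, from Cebpg, has no activation domain of its own and acts through partners, among them ATF4 in the response to amino acid shortage, and DDIT3, also called CHOP, is induced by endoplasmic reticulum stress and keeps other C/EBP proteins from their usual sites.

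Values are given in CPM (read counts made comparable between libraries with TMM factors), in the order of replicates 1, 2 and 3. Spi1, the targeted gene, was still transcribed under the KO label, at 276.9, 285.5 and 319.7 CPM, against 323.4, 340.2 and 283.7 CPM under the WT label. Directions below are therefore between the labels. The Y-linked genes Ddx3y, Eif2s3y, Kdm5d and Uty summed to 0.0513 to 0.44 CPM in the KO libraries and 125 to 171.4 CPM in the WT libraries, so the presence of a Y chromosome followed the label. For every difference below, the deletion and whatever else differs with the Y chromosome, sex included, cannot be told apart. Libraries held 17280855 to 18632623 counts. KO replicate 1 stood apart: across genes its log2 CPM correlated at 0.902 to 0.922 with the other KO libraries and at 0.955 to 0.959 with the WT libraries, while KO replicates 2 and 3 correlated at 0.99 with each other. Counts of calls below are given with and without it; without it 49.6% of all genes were called, and each such count is to be read against that share. The macrophage genes Cd68, Csf1r, Adgre1 and Lyz2 were abundant in all libraries, with Cd68 at 2114 to 2642 CPM. Of 11 neutrophil genes, some of which C/EBP factors control in granulocytes, 7 averaged under 1 CPM. Among these were Elane (0 to 0.0582 CPM), Mpo (0 to 0.3 CPM) and Camp (0 to 0.116 CPM). Others of the list were well above that, with Csf3r at 76.3 to 131.4 CPM, Mmp8 at 16.6 to 166.7 CPM and S100a8 at 1.88 to 6.64 CPM. Of 7 platelet genes edgeR called 4 lower in KO, beside 1.06% of all genes. The summed level of all 7 was 16.7 to 55.6 CPM in KO against 64.2 to 113.2 CPM in WT. Pf4, one of the 7, went the other way, at means of 25.2 against 19 CPM. Its ranges overlapped and it was not called. The summed markers were also lower in every KO library for eosinophils (1.16 to 15.3 against 22 to 29.3 CPM), B cells (9.91 to 35.3 against 43 to 59 CPM) and small peritoneal macrophages and monocytes (293.1 to 348.6 against 364.1 to 579.8 CPM). Genes within these last 2 lists went both ways. Cd22 (B cells) and Itgax (small macrophages) lay wholly below WT, at means of 24 against 50.9 CPM and 211.1 against 428.6 CPM. Cd79b (B cells) and Irf4 (small macrophages) lay wholly above WT, at means of 2.01 against 1.19 CPM and 3.76 against 1.19 CPM. The 5 tested genes of the small macrophage list had a median log2 difference of 1.65. The sums of the other 9 lists overlapped between the labels, except that mesothelial markers were at 0.0521 to 0.103 CPM in KO and 0 in WT. Outside the platelet list, among the cell type markers edgeR called 1 macrophage gene and 1 gene of large peritoneal macrophages as higher. Over all genes it called 2.26% as higher. The part of these cell types in the results below was not tested. In bulk RNA, fewer cells of a type and less RNA per cell cannot be told apart.

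Promoter windows of the 250 bases before the gene start are shown first for Cebpa and Cebpg, on chromosome 7, and for Cebpb. Cebpa and Cebpg were called lower in KO, and Cebpb is an abundant member that did not pass the test. The windows are RefSeq sequences of build GRCm38.p6, and RefSeq windows were matched for 4 of the 5 genes. Capitals mark matches, on either strand, to the 7 short motifs listed after the sequences, and positions count back from -1, the base before the start.
Cebpa, chr7:35119043-35119292, plus strand: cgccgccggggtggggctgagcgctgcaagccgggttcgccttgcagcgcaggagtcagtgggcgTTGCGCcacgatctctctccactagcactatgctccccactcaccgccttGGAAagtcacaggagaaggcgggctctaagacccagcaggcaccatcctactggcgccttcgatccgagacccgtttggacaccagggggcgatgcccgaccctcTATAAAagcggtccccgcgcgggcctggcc
Cebpg, chr7:35056567-35056816, minus strand: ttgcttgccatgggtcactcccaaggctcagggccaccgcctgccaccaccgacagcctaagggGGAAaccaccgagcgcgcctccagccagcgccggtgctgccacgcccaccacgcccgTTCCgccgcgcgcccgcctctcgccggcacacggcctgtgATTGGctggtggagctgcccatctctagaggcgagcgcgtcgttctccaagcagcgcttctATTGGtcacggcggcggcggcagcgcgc
Cebpb, chr2:167688665-167688914, plus strand: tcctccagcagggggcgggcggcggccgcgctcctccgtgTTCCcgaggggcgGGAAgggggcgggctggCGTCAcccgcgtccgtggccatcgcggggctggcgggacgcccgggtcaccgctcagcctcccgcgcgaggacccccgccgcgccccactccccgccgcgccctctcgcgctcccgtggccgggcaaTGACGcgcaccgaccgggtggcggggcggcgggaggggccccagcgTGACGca

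The ETS core GGAA, the letters at the centre of PU.1 binding sites, occurred in all 4 members' windows and in 93.4% of the 32851 windows of all genes, so it does not set the family apart. In Cebpa it began at -135, in Cebpg at -186 and, reversed, at -129. Only the Cebpa window held the C/EBP core TTGCGC, at -185 (5.34% of all windows), and the TATA box TATAAA, at -30 (12.4%). Cebpg held reversed CCAAT boxes at -89 and -28, and Ddit3 held one as well; the letters CCAAT were in 33.8% of all windows. Cebpb held the cyclic AMP response core TGACG at -53 and -7 and, reversed, at -180 (17.8% of all windows). Neither the C/EBP palindrome TTGCNNAA (9.56% of all windows), whose first letters overlap those of TTGCGC, nor the C/EBP-ATF composite TGATGCAA (0.791%) was found in the members' windows. The windows of Cebpa, Cebpg and Cebpb were 66.4%, 70.8% and 81.6% G and C, against a median of 52.4% for all windows. A match of letters is a description and does not show binding.

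In WT macrophages Cebpa and Cebpb were the abundant members and Cebpd the scarcest. On the length-adjusted TPM scale of the authors' table, Cebpa was at 181.4, 199.9 and 189.4 TPM in WT replicates 1, 2 and 3 (190.2 ± 9.27, SD, n = 3), which placed it at rank 633 of the 15469 genes. Cebpb followed at 148.6, 167.5 and 126.1 TPM (147.4 ± 20.7), below every WT value of Cebpa. Ddit3 and Cebpg came next at 27.8 ± 0.663 and 26.9 ± 2.29 TPM, with overlapping ranges of 27 to 28.3 and 24.6 to 29.2 TPM. Cebpd was last in every WT library, at 12.8, 10.1 and 9.35 TPM (10.7 ± 1.81).

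In the libraries labelled KO this order was not kept. Cebpb and Cebpa overlapped, at 169, 90.2 and 128.4 TPM (129.2 ± 39.4) and at 114.6, 122.1 and 140.9 TPM (125.9 ± 13.5) in replicates 1, 2 and 3. Cebpd, at 27.1, 22.1 and 24.3 TPM, had joined Ddit3 (27.7, 23 and 27.8 TPM) and lay above Cebpg in 3 of 3 libraries (23.5, 19 and 17.7 TPM). The summed TPM of the 5 genes was 361.9, 276.5 and 339 in KO and 394.4, 432.7 and 382.1 in WT, so that every KO library lay below every WT library (two-sided exact permutation test over 20 assignments, p = 0.1, the smallest that 3 against 3 libraries can give).

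**Figure D1:**
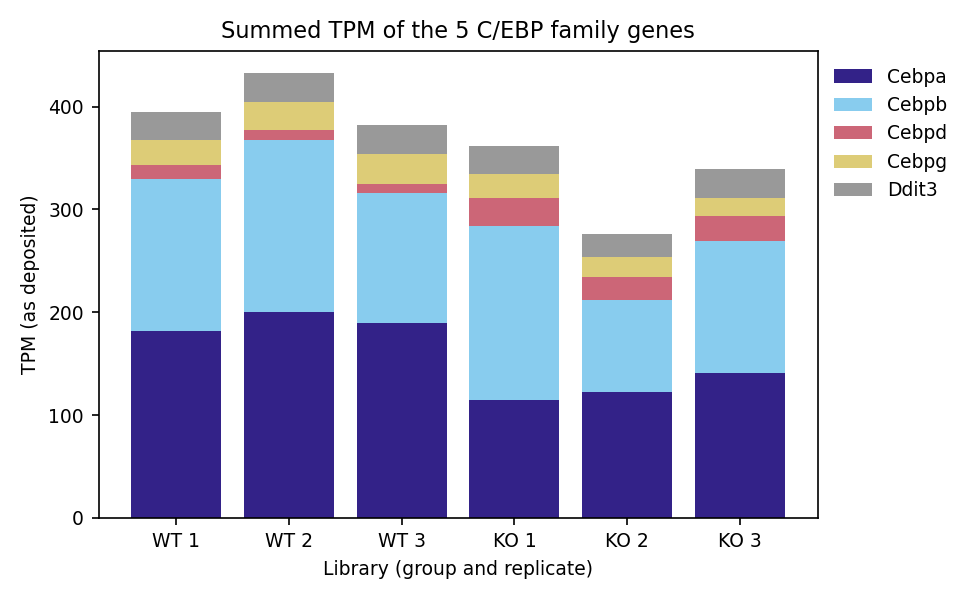
Summed TPM (vertical axis, as deposited) of the 5 genes in each of the 6 libraries (horizontal axis), stacked by gene with no error bars because each bar is 1 library. The Cebpa segment is 181.4 to 199.9 TPM in the WT libraries and 114.6 to 140.9 TPM in the KO libraries, and the Cebpd segment is 9.35 to 12.8 TPM and 22.1 to 27.1 TPM.

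As a share of the summed family TPM within a library, Cebpd took 3.24%, 2.33% and 2.45% in WT and 7.49%, 8% and 7.17% in KO. Its mean share went from 2.67% ± 0.495 to 7.55% ± 0.418 (SD, n = 3 each), with no overlap. The share of Cebpa was 47.3% ± 2 in WT and 39.1% ± 6.59 in KO, also without overlap, and without KO replicate 1, at 31.7% the lowest library, the KO shares were 44.2% and 41.5%. Ddit3 took 6.91% ± 0.414 in WT and 8.05% ± 0.358 in KO, a difference of 1.14 percentage points that was 0.357 when shares were taken from counts without a length. For these 3 genes the exact permutation p was 0.1, the smallest the design allows, and 0.167 after Benjamini-Hochberg adjustment over the 5 genes. The shares of Cebpb and Cebpg overlapped between the labels (exact permutation p = 0.8 and 0.6).

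Between the labels, 3 of the 5 members were called by edgeR's quasi-likelihood test at a Benjamini-Hochberg adjusted p under 0.05, Cebpd as higher and Cebpa and Cebpg as lower in KO. Over all genes tested the share called was 3.32% (2.26% higher and 1.06% lower). Each count of calls below from this fit is to be read against these shares. The KO and WT values did not overlap for 4 of the 5 genes, against 31.0% of all tested genes (18.4% with KO above and 12.6% with KO below). The 5 genes had a median log2 difference of -0.36, KO minus WT, and all tested genes one of -0.0059.

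**Figure D2:**
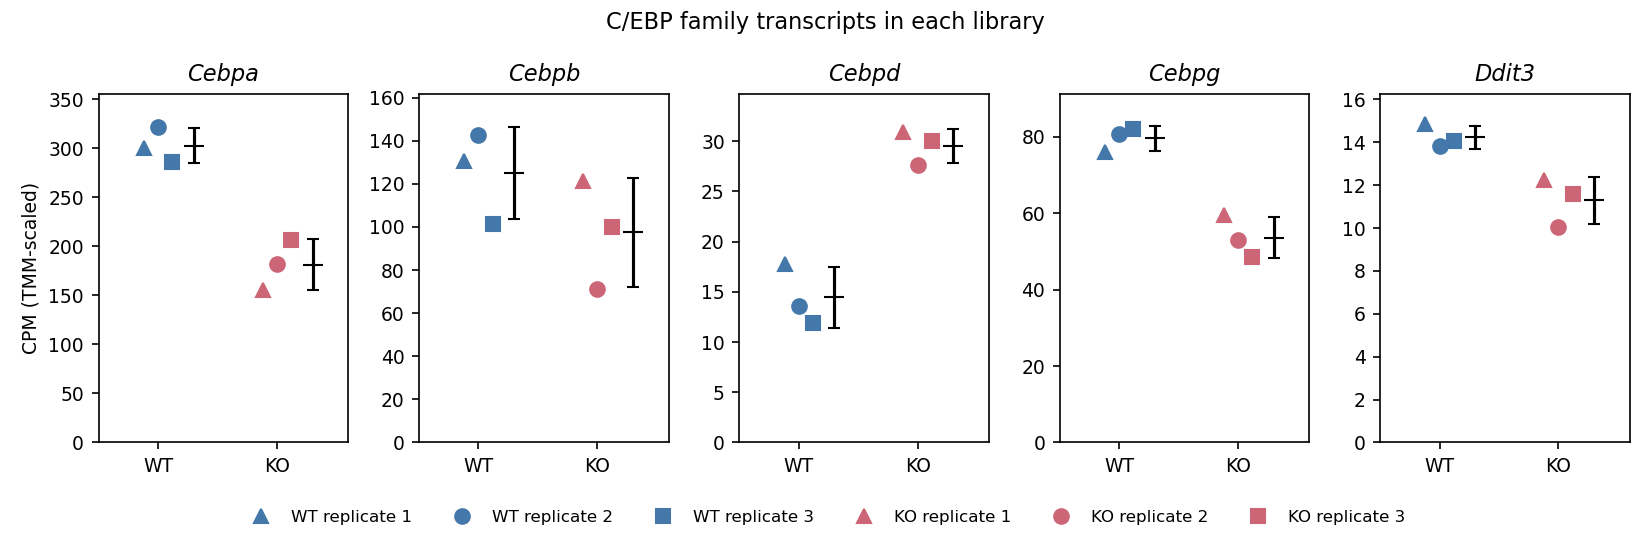
CPM on TMM-scaled library sizes (vertical axes, a separate scale from 0 for each gene) in the 3 WT and 3 KO libraries, with a symbol for each replicate number and a black bar for the mean and SD. The KO values lie below the WT values for Cebpa, Cebpg and Ddit3, above them for Cebpd, and overlap them for Cebpb.

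Cebpa (gene ID 12606, chromosome 7, 35118044 to 35121928 in the table, plus strand, GRCm38) had KO values of 155, 181.6 and 206.7 CPM and WT values of 300, 321 and 285.8 CPM. Every KO library was below every WT library, and KO replicate 1 was the lowest. The mean fell from 302.3 ± 17.7 to 181.1 ± 25.8 CPM, which is -0.74 on the log2 scale (SE 0.125, 95% interval -1.04 to -0.43, edgeR adjusted p = 0.0418). The listed start lies ahead of the RefSeq start of the gene, 35119293. The call was lost with upper-quartile factors (adjusted p = 0.0886), and the log2 difference without KO replicate 1 was -0.62 (adjusted p = 0.00108), where 49.6% of all genes were called.

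Cebpg (gene ID 12611, chromosome 7, 35046422 to 35056566, minus strand) had 59.4, 52.9 and 48.6 CPM in KO and 75.9, 80.8 and 82 CPM in WT. All KO values lay below all WT values. The mean fell from 79.6 ± 3.23 to 53.6 ± 5.47 CPM, which is -0.57 on the log2 scale (SE 0.104, 95% interval -0.82 to -0.32, edgeR adjusted p = 0.0474). Correcting for the GC content and length of transcripts took the log2 difference of Cebpg to -0.28 (adjusted p = 0.248), or to -0.15 without KO replicate 1 (0.204). Over all genes that correction called 4.96%, or 54.4% without KO replicate 1, and it moved the share of called genes that were higher in KO from 68.1% to 52%.

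The RefSeq transcription starts of Cebpa and Cebpg lie 62.7 kb apart, on opposite strands. Within 500 kb of Cebpa, 6 other genes were tested and 0 of them were called. Over all genes 3.32% were called, a share at which 0 of 6 does not set the neighbours apart. KO values lay wholly above WT for 2 of the 6, beside 18.4% of all genes. Pepd, a dipeptidase gene on the far side of Cebpg, was at 71.7 CPM in KO and 71.8 CPM in WT (log2 difference -0.00054). Gpatch1, the nearest tested gene on the side of Cebpa, had a log2 difference of 0.12 (edgeR adjusted p = 0.582), and the widest departure was that of Cep89, at 0.86 (0.152).

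**Figure D3:**
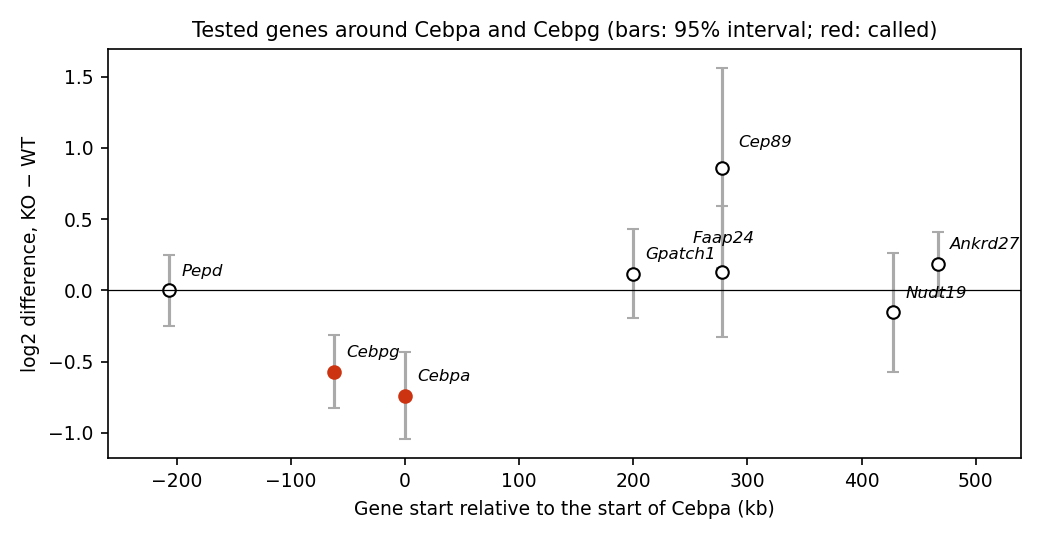
Log2 difference, KO minus WT, with its 95% interval (vertical axis) for the tested genes within 500 kb of Cebpa, placed by the distance of their start from that of Cebpa in kb (horizontal axis). Cebpa and Cebpg, in red, are at -0.74 and -0.57. The 6 other genes, in white, lie between -0.15 and 0.86 and were not called, where 3.32% of all genes were.

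Cebpd (gene ID 12609, chromosome 16, 15887286 to 15889545, plus strand) was the member that rose. It had 30.9, 27.7 and 30 CPM in KO and 17.8, 13.6 and 11.9 CPM in WT. The KO libraries lay close together and above all WT libraries, and KO replicate 1 did not stand apart from replicates 2 and 3. The mean went from 14.4 ± 3.03 to 29.5 ± 1.66 CPM, 2.04-fold (log2 difference 1.03, SE 0.169, interval 0.62 to 1.44, edgeR adjusted p = 0.0401). After the GC and length correction Cebpd was at a log2 difference of 0.78 (adjusted p = 0.0896), and 0.63 (0.00868) when KO replicate 1 was also left out. The Cebpd transcript used for that correction, of 3746 bases, is longer than the listed gene. The correction may therefore not describe the reads counted for Cebpd. The last 322 bases of Cebpd overlap Spidr, a DNA repair gene on the other strand, at 19.5 ± 2.26 CPM in KO and 15.1 ± 1.66 CPM in WT (log2 difference 0.37, adjusted p = 0.2). The strand setting of the counting is not given in the sources used here, so reads of that stretch cannot be told apart.

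Cebpb (gene ID 12608, chromosome 2, 167688915 to 167690432, plus strand) was at 121.4, 71.1 and 99.8 CPM in KO and at 130.4, 142.8 and 101.3 CPM in WT. The ranges overlapped through KO replicate 1, and the gene varied more within the groups than Cebpa did (97.4 ± 25.2 and 124.9 ± 21.3 CPM). Its log2 difference of -0.36 had a 95% interval from -0.92 to 0.21 (edgeR adjusted p = 0.383), which includes both 0 and a change as large as that of Cebpa. Without KO replicate 1 it was -0.53 (0.0573), and with the GC and length correction as well -0.54 (0.000473). At 67.2% the Cebpb transcript has a GC content above 99.9% of the tested genes, and Cebpa, at 62.6%, one above 98.9%. Counts per gene do not separate the longer and shorter proteins that Cebpa and Cebpb make from different start codons.

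Ddit3 (gene ID 13198, chromosome 10, 127290793 to 127296291, plus strand) was at 12.2, 10.1 and 11.6 CPM in KO and at 14.8, 13.8 and 14.1 CPM in WT. On this scale no KO value reached the WT range, whereas on the TPM scale above 2 of 3 KO values lay within it. In CPM the log2 difference of -0.33 (SE 0.126, interval -0.64 to -0.027) did not pass the test over all genes by edgeR (adjusted p = 0.19, unadjusted 0.0373). Without KO replicate 1 it was -0.38 and was called (adjusted p = 0.0336). Ddit3 shares 77 bases with Mbd6 on the same strand and 71 bases with the methionyl-tRNA synthetase gene Mars on the other, which had log2 differences of -0.33 (adjusted p = 0.262) and 0.33 (0.0894).

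Cebpa, Cebpd and Cebpg stayed called without KO replicate 1. By contrast, 0 of the 5 members were called when any other single library was left out, where 0.130% (without KO 2), 0.0952% (KO 3), 0.119% (WT 1), 0.0427% (WT 2) and 0.0598% (WT 3) of all genes were. Of 12 called genes named here outside the family, all 12 were also called with KO replicate 1 left out, but 1 when KO replicate 2 or WT replicate 1 was, and 0 when 1 of the other libraries was. The log2 differences of the 3 members kept their sign and moved little in these fits, between -0.88 and -0.62 for Cebpa, 0.90 and 1.18 for Cebpd, and -0.64 and -0.54 for Cebpg. DESeq2 on the same counts called the same 3 genes in the same directions (8.70% of all genes), as did edgeR with RLE factors (3.29%) and limma-voom (3.11%). Upper-quartile factors called 2 of the 5 (3.34%). With no filter (1.90%), with a mean above 10 CPM (2.77%), and with the GC and length correction alone or beside the replicate number as a block (0.604%), 1 was called. In the authors' deposited table, made with DESeq2, these 3 genes had q-values of 0.000442 (Cebpa), 6.2e-05 (Cebpd) and 0.000254 (Cebpg), and 8.02% of all genes had a q-value under 0.05.

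**Figure D4:**
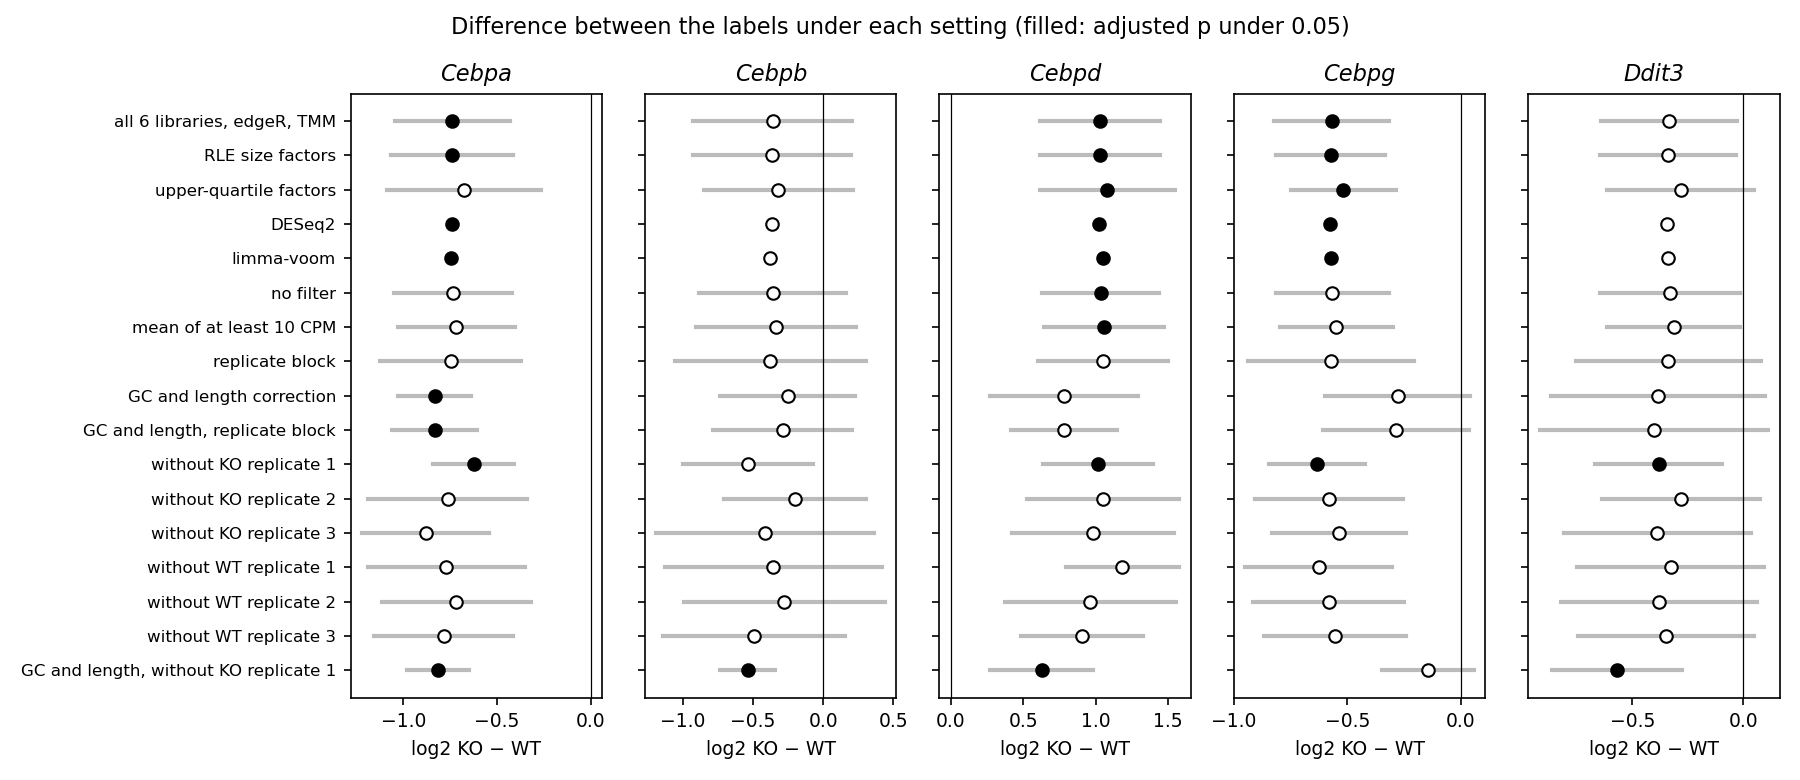
Log2 difference, KO minus WT (horizontal axes, a separate scale for each gene), of each member under the main edgeR fit and each alternative (vertical axis), with 95% intervals as grey lines where the tool gave them. Filled points are called at an adjusted p under 0.05: Cebpa runs from -0.88 to -0.62, and Cebpg reaches -0.15 with the GC and length correction without KO replicate 1.

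Of the relatives outside the 5, Cebpe, a granulocyte factor, was at 0.0582 to 0.417 CPM and was not tested. Cebpz, a CCAAT-box factor without a leucine zipper, was at 28.6 CPM in KO replicate 1, 9.14 and 11.5 CPM in replicates 2 and 3 and 26.4 to 31.5 CPM in WT. Its log2 difference was -0.81 (edgeR adjusted p = 0.325), and -1.46 (0.000159) without KO replicate 1, where Cebpz was called lower. Of 36 other leucine zipper factors tested, edgeR called 0 in either direction. At an unadjusted p under 0.05 by edgeR, 3 were higher and 3 lower, beside 2596 of all 11424 genes in either direction. DESeq2 called 1 higher and 2 lower, beside 8.70% of all genes. With KO replicate 1 left out, 5 were higher and 13 lower. The median log2 difference of these factors was -0.089. The smallest p belonged to Batf3, which pairs with JUN proteins, at 1.04 ± 0.0948 against 2.53 ± 0.554 CPM (edgeR adjusted p = 0.0613). Batf3 was called lower with the GC and length correction (adjusted p = 0.04) and without KO replicate 1 (0.00882). Atf4, the partner of C/EBPγ, was at 124.5 to 151.6 CPM in KO and 125.3 to 131 CPM in WT, and Atf3, another stress-induced factor, at 330.6 to 451.4 against 549.3 to 551.6 CPM (adjusted p = 0.0892; both chosen after their values were seen).

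Among 24 receptors and signal carriers upstream of Cebpb and Cebpd, edgeR called 0 higher and 1 lower, beside 2.26% and 1.06% of all genes. Their median log2 difference was 0.18. The called gene was Csf2ra, the ligand-binding chain of the GM-CSF receptor, at 197.5, 186.4 and 217.1 CPM in KO and 303.1, 315 and 274.5 CPM in WT. Its mean went from 297.5 ± 20.8 to 200.3 ± 15.5 CPM, a log2 difference of -0.57 (SE 0.098, edgeR adjusted p = 0.0432). Csf2ra was not called by edgeR with upper-quartile factors (adjusted p = 0.0974), no filter (0.0536), the 10 CPM filter (0.0526) or the replicate block (0.19). Il6ra, the interleukin 6 receptor chain, and Nfkb1 and Relb, subunits of NF-kB, were at log2 differences of 0.63, 0.44 and 0.63 (adjusted p = 0.0544, 0.0638 and 0.0709; chosen after their values were seen). DESeq2 called 5 of the 24 higher and 1 lower, beside 8.70% of all genes. Without KO replicate 1, 9 were higher and 5 lower, 14 of 24, beside 49.6% of all genes.

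Of 16 genes that control C/EBP proteins after translation, such as the Tribbles scaffolds and the kinases that phosphorylate C/EBPβ, edgeR called 0. An unadjusted p under 0.05 by edgeR was reached by 4, beside 2596 of all 11424 genes. DESeq2 called 2 higher, beside 8.70% of all genes. Without KO replicate 1, 5 were higher and 3 lower. Mapk14, the p38α kinase gene, had the smallest p, at 193.4 ± 16.6 against 148.6 ± 3.94 CPM (edgeR adjusted p = 0.0831, and 0.00156 without KO replicate 1). Trib1, whose protein leads to degradation of C/EBPα, was at 12.1 to 17 CPM in KO and 16.6 to 19.2 CPM in WT (adjusted p = 0.369; picked once its values were known). Among 13 myeloid partner factors edgeR called 0 and DESeq2 1 as lower, beside 3.32% and 8.70% of all genes. By edgeR 4 were at an unadjusted p under 0.05, beside 2596 of all 11424 genes. With KO replicate 1 left out, 0 were higher and 5 lower. Bhlhe40, a repressor of Il10, had the smallest p of the partner factors, at 60.8 ± 13.8 against 104 ± 11.6 CPM (edgeR adjusted p = 0.0901). Bhlhe40 was called lower with the GC and length correction (-1.04, adjusted p = 0.0153) and without KO replicate 1 (-0.58, 0.00301).

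Lipid genes known as targets of C/EBPα in fat cells were lower or did not pass. Of 8 tested, edgeR called 0 higher and 2 lower, beside 2.26% and 1.06% of all genes. The median log2 difference of the list was -0.74. Fabp4, a fatty acid carrier of fat cells and macrophages, was at 96.7, 77.5 and 89.9 CPM in KO and at 297.7, 267.4 and 276.3 CPM in WT. The groups were far apart, and the mean fell to 0.314 of the WT level (log2 difference -1.67, SE 0.111, edgeR adjusted p = 0.00634). With the GC and length correction Fabp4 was at -0.90 and was not called (adjusted p = 0.0541), and at -0.66 (2.26e-05) when KO replicate 1 was left out as well. With all 6 libraries the correction called 4 of the list lower and 0 higher, beside 4.96% of all genes. Plin2, the main coat protein of lipid droplets in macrophages, was at 595.9 to 724.9 CPM in KO and 1571 to 1706 CPM in WT (log2 difference -1.34, SE 0.11, edgeR adjusted p = 0.0106). Cd36 and Lpl, a lipid uptake receptor and the lipoprotein lipase, had log2 differences of -1.90 and -1.02 without passing (adjusted p = 0.0788 and 0.0613; chosen after their values were seen). Pparg, the nuclear receptor that acts with C/EBPα in fat cells, was at 20.3, 37.7 and 38.8 CPM in KO and 37.8 to 43.6 CPM in WT. DESeq2 called 5 of the list lower, beside 8.70% of all genes called, as did edgeR without KO replicate 1, beside 49.6%.

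The next list held amino acid and redox genes driven by ATF4, for which C/EBPγ is a known partner. Of 15 tested, 4 were called higher and 0 lower by edgeR, beside 2.26% and 1.06% of all genes. KO values lay wholly above WT for 12 of the 15, beside 18.4% of all genes. The median log2 difference was 0.36. Asns, the asparagine synthetase gene, was at 22.4, 17.9 and 13.8 CPM in KO and at 5.47, 5.26 and 5.29 CPM in WT, 3.38-fold (log2 difference 1.75, SE 0.205, edgeR adjusted p = 0.0208). KO replicate 1 was the highest for Asns. Mthfd2, a mitochondrial folate enzyme, rose 2.51-fold and Aldh18a1, an enzyme of proline synthesis, 1.97-fold (edgeR adjusted p = 0.021 and 0.0297). The other called gene was Sesn2, a stress-induced regulator of growth signalling, at a log2 difference of 0.90 (adjusted p = 0.0219; picked once its values were known). The lowest log2 differences were those of the cystine transporter chains Slc7a11 (-0.60) and Slc3a2 (-0.31), which were not called (adjusted p = 0.781 and 0.308; picked once their values were known). Slc7a11 was at 333.6 CPM in KO replicate 1, 12.7 and 15.8 CPM in KO replicates 2 and 3 and 144.8 to 222.3 CPM in WT. Without KO replicate 1, 11 of the list were called higher and 2 lower. DESeq2 called 8 higher, beside 8.70% of all genes called in either direction. The GC and length correction called 4 higher, of which Aldh18a1 was not 1 (0.76, adjusted p = 0.059).

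Genes of the integrated stress response around DDIT3 were spread on both sides. Of 21 tested, edgeR called 0. At an unadjusted p under 0.05 by edgeR, 7 were higher and 4 lower, beside 2596 of all 11424 genes in either direction. DESeq2 called 4 higher and 3 lower, beside 8.70% of all genes. Leaving out KO replicate 1 gave 6 higher and 8 lower. Ddit4, an inhibitor of mTOR signalling, had the smallest p, at 2.6 ± 0.433 against 1.21 ± 0.146 CPM (edgeR adjusted p = 0.0712, and 0.00751 without KO replicate 1). Trib3, a target of ATF4 and DDIT3, was at 3.7 to 5.94 CPM in KO and 2.28 to 2.66 CPM in WT, whereas Hspa5, the chief chaperone of the endoplasmic reticulum, was at 736.2 to 874 CPM against 973.6 to 1050 CPM (adjusted p = 0.112 and 0.118; chosen after their values were seen). Neither pair of ranges overlapped, and the directions were opposite.

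**Figure D5:**
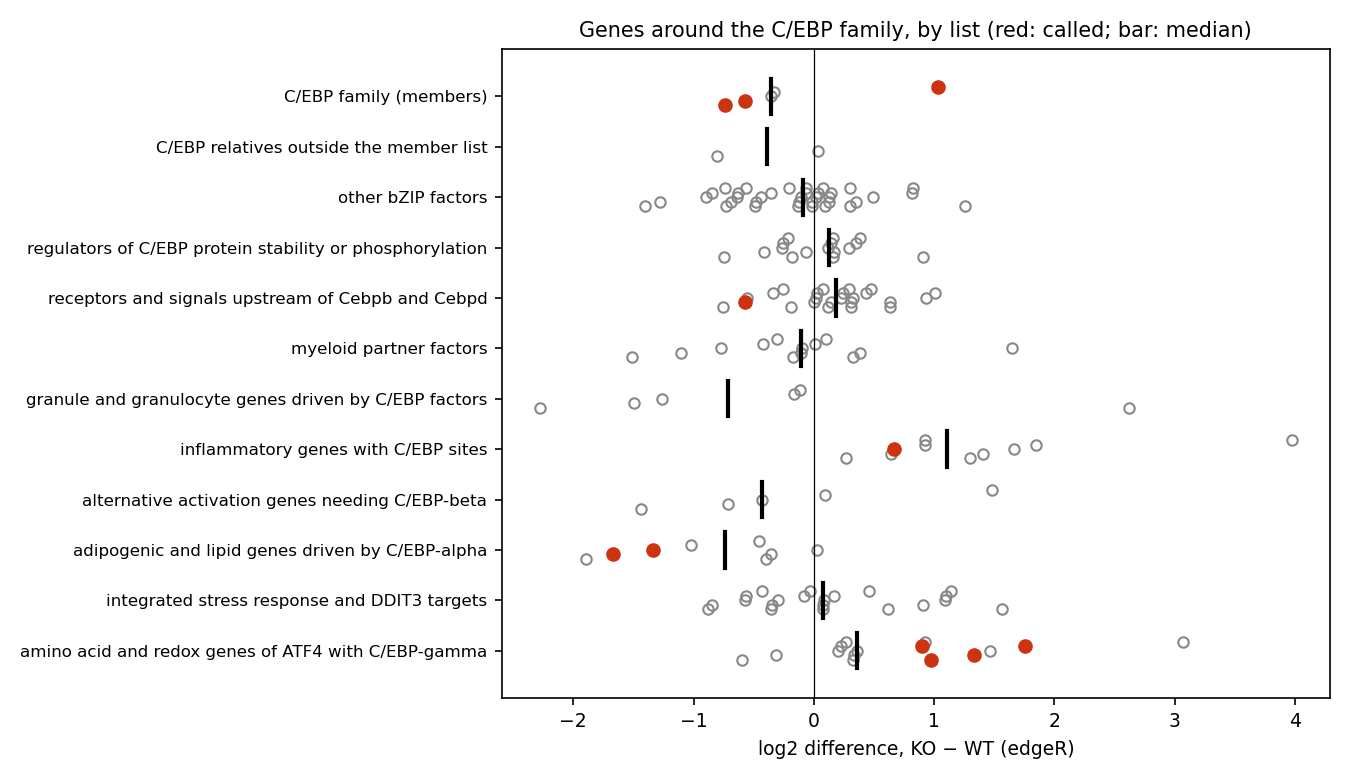
Log2 difference, KO minus WT (horizontal axis), of each tested gene in the 12 lists (vertical axis), with called genes in red and the median of each list as a black bar. The called genes of the amino acid list lie between 0.90 and 1.75, and those of the lipid list at -1.67 and -1.34.

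Inflammatory genes with C/EBP sites had a median log2 difference of 1.11, but 1 of 10 was called, as higher, by edgeR. Over all genes it called 2.26% as higher. DESeq2 called 3 higher, beside 8.70% of all genes, while edgeR with 5 libraries, KO replicate 1 aside, had 5 higher and 2 lower. Saa3, Ptgs2 and Cxcl2 were high in KO replicate 1 alone. The called gene was Ccl4, a chemokine, at 50.5, 52.6 and 52.2 CPM in KO and 37.2, 31.7 and 29.1 CPM in WT (log2 difference 0.67, SE 0.115, edgeR adjusted p = 0.0443). Ccl4 was not called with the GC and length correction (0.58, adjusted p = 0.0733). That correction called 2 of the list higher and 0 lower, beside 4.96% of all genes. Cd14, the lipopolysaccharide co-receptor, was at 220.5, 497.7 and 483 CPM in KO against 140.1 to 166.7 CPM in WT (adjusted p = 0.0788; picked once its values were known). Of 5 alternative activation genes known to need C/EBPβ, edgeR called 0 and DESeq2 called 1 lower, beside 3.32% and 8.70% of all genes. At an unadjusted p under 0.05 by edgeR, 1 was higher and 3 lower, beside 2596 of all 11424 genes in either direction. Leaving out KO replicate 1 gave 0 higher and 3 lower. The one with the smallest p was Il10, the anti-inflammatory cytokine, at 0.725 ± 0.138 against 0.255 ± 0.123 CPM (adjusted p = 0.128). The 3 lower genes, Il13ra1, Mrc1 and Msr1, lay wholly below WT (edgeR adjusted p = 0.131, 0.152 and 0.13). Their means were 12 against 32.3, 147.9 against 242.1 and 231.4 against 312.2 CPM. They were picked once their values were known. Of 6 granule and granulocyte genes tested, edgeR called 0 and DESeq2 called 1 lower, beside 3.32% and 8.70% of all genes. At an unadjusted p under 0.05 by edgeR, 2 were lower, beside 2596 of all 11424 genes in either direction. Leaving out KO replicate 1 gave 0 higher and 4 lower. S100a8, a calcium-binding neutrophil protein, had the smallest p, at 2.59 ± 0.964 against 6.21 ± 0.389 CPM (edgeR adjusted p = 0.0774, and 0.000363 without KO replicate 1).

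Correlations across the 6 libraries mostly restated the difference between the labels for Cebpa, Cebpd, Cebpg and Ddit3, whose KO and WT values did not overlap. Within KO, Cebpa was lowest and Cebpg highest in replicate 1, and the reverse held in replicate 3. Cebpb, whose values overlapped, had weaker correlations, except with Ddit3. Pearson's r of log2 CPM was -0.93 between Cebpd and Cebpg, -0.89 between Cebpd and Cebpa and 0.81 between Cebpa and Cebpg, as a description over 6 points that fall into the labelled groups. Ddit3 had an r of 0.87 with Cebpg, 0.79 with Cebpa and -0.76 with Cebpd. Cebpb had an r of 0.51 with Cebpa, -0.41 with Cebpd, 0.61 with Cebpg and 0.81 with Ddit3. Among 8173 candidate genes whose average reached 10 CPM, the genes most like Cebpa were Dbi, Pld3 and S100a11 (r of 0.999, 0.998 and 0.998). Those most like Cebpb were Tbc1d10a, Comtd1 and Card19, those most like Cebpd were Tcn2, Ebi3 and Irak3, those most like Cebpg were Bcar3, Cpt1a and Arih2, and those most like Ddit3 were Syvn1, Nifk and Rara. The r of all 15 genes lay between 0.971 and 0.999, and 2 of them, Dbi and Tbc1d10a, stayed among the first 3 of their member without KO replicate 1.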

How the data were processed

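Messenger RNA of 3 KO and 3 WT libraries, grouped by sample titles, was captured on beads, fragmented and sequenced on an Illumina instrument, per the labels' protocols. The submitters' processing notes name fastp 0.18.0 and the build GRCm39; which aligner, counter and strand setting were used is not given in the sources used here. Coordinates in the table are GRCm38: 13131 of 15426 genes matched to RefSeq GRCm38.p6 had the same start. The authors deposited estimated counts per gene, of which 4.82% to 5.49% per library were not whole, and which were rounded here. The authors also deposited TPM, used for levels between genes, and FPKM. Per the file headers, the deposited log2 fold changes, p-values and q-values are those of a DESeq2 comparison.

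Counts were filtered with filterByExpr (minimum count 10), scaled by TMM and tested in edgeR 4.0.16 (R 4.3.3) by quasi-likelihood with robust dispersions and group as the only term. Alternatives used DESeq2 1.42.0, limma 3.58.1, other factors and filters, single libraries left out, and GC content and length of GENCODE M21 transcripts (smooth terms per library, mgcv 1.9.3; values for 98.5% of tested genes). The fit was run on simulated counts with a dispersion of 0.01, in which 200 genes were changed 2-fold. It recovered 100% of them, and 3.85% of its calls were false. No simulated library stood apart as KO replicate 1 did, so this does not show how the fit performs on these data. Counts limit precision: 1 library held 196 to 5558 counts of a member.

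Members and lists were chosen with earlier results of these data known. Named were all members, from each list up to 3 called genes at 1 CPM or more, taken by size of change, or else the gene of smallest p, and for each member the 3 genes with the highest r. Lists of marker genes for 13 cell types were also read. Replicate numbers did not pair the libraries (r of same-numbered deviations -0.16, 0.25 and -0.27). No columns of other samples were present.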

Additional observations from a re-analysis of the deposited data

How the results depend on the processing

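With 3 libraries a group and 1 that stands apart, the calls depended on which libraries and scalings were used. Genes called numbered 379, and 1344 with DESeq2, 229 among genes averaging 10 CPM or more, 0 with the replicate block (1976 at an unadjusted p under 0.05; 379 by edgeR and 355 by limma-voom without it), 69 with the GC and length correction and the block, 5 to 5793 with single libraries left out, and 6354 with the GC and length correction without KO replicate 1, an alternative chosen after seeing the data, which moved the median log2 difference of all genes from -0.0059 to -0.13. Members called numbered 3, and 1 with no filter, among genes averaging 10 CPM or more, and with the GC and length correction alone or with the block, 0 with the replicate block, and 0 to 4 with single libraries left out.

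Upper-quartile factors ended the call of Cebpa (log2 difference -0.68), as did no filter (-0.73, adjusted p = 0.0511), the 10 CPM filter (-0.72, 0.0508) or the replicate block (-0.75, 0.166). Cebpd was not called with the block (1.05, 0.146), the GC and length correction (0.78) or both (0.78, 0.0957), though the correction used a transcript longer than the listed Cebpd gene. Cebpg was not called with no filter (-0.57, 0.0532), the 10 CPM filter (-0.55, 0.0546), the block (-0.57, 0.201), the GC and length correction (-0.28), both (-0.29, 0.258), or the correction without KO replicate 1 (-0.15). With that last setting Cebpb (-0.54) and Ddit3 (-0.57, 0.00414) were called. With single libraries left out the log2 differences ran from -0.88 to -0.62 (Cebpa), -0.53 to -0.20 (Cebpb), 0.90 to 1.18 (Cebpd), -0.64 to -0.54 (Cebpg) and -0.39 to -0.28 (Ddit3). Apart from fewer libraries or other genes tested, the cause of these changes was not tested.

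The share of family TPM taken by Cebpb, KO minus WT, was 2.61 percentage points, and -1.21 to 5.82 with single libraries left out, the negative value being that without KO replicate 1. The share of Ddit3 went from 1.14 to 0.357 points when counts without a length were used. Of 32 other named genes, 12 were called. All 12 stayed called with RLE factors, DESeq2, limma-voom and without KO replicate 1. With the GC and length correction 8 stayed called, and 0 or 1 without any other single library. Upper-quartile factors kept 7, no filter 7, the 10 CPM filter 8, the correction with the block 4 and the replicate block 0. Among the 32, the sign changed for 1, Tcn2, at -0.055 in the correction without KO replicate 1 against 0.18.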

Other observations

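Some acute-phase and inflammatory genes that C/EBP factors are known to drive were highest in KO replicate 1, and others were not. Saa3, an acute-phase apolipoprotein, was at 27.6 CPM in KO replicate 1, 0.719 and 1.36 CPM in KO replicates 2 and 3 and 0.18 to 1.16 CPM in WT. Hp, the haemoglobin scavenger haptoglobin, was at 58 CPM there and at 2.44 to 5.26 CPM in the other 5 libraries, and Lcn2, an iron-siderophore binding protein, at 5.56 CPM against 0 to 0.462 CPM. Ptgs2 (cyclooxygenase) and Cxcl2 (a neutrophil chemokine) were at 5.61 and 7.1 CPM, against 0.154 to 0.841 and 0.365 to 2.46 CPM elsewhere. Tnf was at 48.2 CPM, then 19.7 and 18.9 CPM in KO replicates 2 and 3, and 14.5 to 16.3 CPM in WT. Cd14 and Ccl4 were not highest in that library, and Ptx3, a soluble pattern recognition protein, was at 0.33 CPM there and at 2.62 and 3.44 CPM in KO replicates 2 and 3. The monocyte genes Ccr2 and Ly6c2 were at 64.1 and 20.1 CPM in the same library and at 1.54 to 2.58 and 0.0521 to 0.751 CPM in the others. Cd209a, Mgl2, Irf4 and H2-Aa of the same marker list were also highest there, at 7.38, 8.15, 7.65 and 113.2 CPM. The remaining genes of that list were lowest there. Folr2, a folate receptor, was at 3.41 CPM against 49 and 55.8 CPM in KO replicates 2 and 3. Itgax, the integrin CD11c, at 69.1 CPM was the lowest of all 6 libraries. Their part in these values was not tested. Within the KO group that library was the highest for Cebpb, Cebpd, Cebpg and Ddit3 and the lowest for Cebpa. These genes were chosen after their values were seen, and a single library gives no replicate check.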
